A study of Mus musculus with 12 samples.

Results

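The genes described here are 10 members of a FOXO-linked growth arrest and nutrient response set, Sesn1, Arrdc3, Txnip, Pik3ip1, Ccng2, Bcl6, Klhl24, Irs2, Foxo1 and Foxo3, taken by symbol from a table of 24062 gene entries. The symbols were selected on general knowledge of FOXO biology with results of these same libraries known. Which of the measured differences between groups led to the choice is not recorded, so all of them are treated as values that chose the members. All 10 symbols were found and all 10 passed the filter on low values. Messenger RNA had been sequenced from bone marrow derived macrophages of C57Bl/6 mice at passage 1, all labelled wild type (WT), in 4 groups of 3 libraries. One group was unstimulated. The treated groups received C-178 alone, CMA alone, or C-178 and CMA together, each with a labelled time of 2 h. CMA is a small molecule that activates mouse STING, the adaptor of cytosolic DNA sensing, and C-178 is a covalent STING inhibitor. The labels used here state no age, dose or order of addition, and nothing in the labels says whether the libraries of a group came from separate mice, so the spread between them may be technical. Part of the extraction text speaks of mouse embryonic fibroblasts. The macrophage label was met in the data: 9 of 10 macrophage markers were found and all 9 had group means above 100 normalised counts in each group, where a normalised count is the number of reads divided by a size factor of its library.

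FOXO proteins are forkhead transcription factors that growth factor signals hold in check. Insulin and related ligands act through IRS adaptors and PI3 kinase on the kinase AKT, which phosphorylates FOXO proteins and moves them out of the nucleus. When that signal is weak, FOXO proteins enter the nucleus and drive genes for cell cycle arrest, restraint of mTOR, antioxidant defence and insulin sensitivity, and in macrophages they are known to affect cytokine and interferon genes. The set holds the factors themselves (Foxo1, Foxo3), parts of the input (Irs2, Pik3ip1) and genes commonly named as outputs (Sesn1, Arrdc3, Txnip, Ccng2, Bcl6, Klhl24). Only messenger RNA was measured, so the place, phosphorylation and DNA binding of FOXO proteins were not analysed here.

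The members did not move as a block. With CMA, the messages of Sesn1, Arrdc3, Irs2, Foxo3 and Klhl24 were 3.08 to 14.2-fold lower than without stimulation, those of Pik3ip1 and Bcl6 were 5.14-fold and 2.17-fold higher, and those of Foxo1, Txnip and Ccng2 were not called different. With C-178 added to CMA, Arrdc3, Sesn1, Foxo3 and Klhl24 were higher and Bcl6 and Pik3ip1 were lower than with CMA alone. Of these calls, those of Pik3ip1, Foxo3 and Klhl24 were lost in 13, 10 and 2 of 25 alternative settings of the analysis. Irs2 was low in both groups that received CMA.

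The promoter sequences of 2 members are given first, because Txnip and Arrdc3 encode related alpha-arrestins, of which Arrdc3 was far lower with CMA and Txnip was not called. Both are the 250 bases before a RefSeq start on the plus strand of GRCm38.p6, at chr3:96557707-96557956 for Txnip and chr13:80883134-80883383 for Arrdc3. Arrdc3 has 3 RefSeq promoter windows, and the one at the lowest position is shown. Capitals mark a forkhead core.
Txnip: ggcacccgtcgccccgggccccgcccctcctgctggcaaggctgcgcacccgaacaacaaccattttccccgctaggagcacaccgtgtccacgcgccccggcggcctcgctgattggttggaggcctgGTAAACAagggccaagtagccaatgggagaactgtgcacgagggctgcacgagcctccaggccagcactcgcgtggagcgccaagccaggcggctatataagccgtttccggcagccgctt
Arrdc3: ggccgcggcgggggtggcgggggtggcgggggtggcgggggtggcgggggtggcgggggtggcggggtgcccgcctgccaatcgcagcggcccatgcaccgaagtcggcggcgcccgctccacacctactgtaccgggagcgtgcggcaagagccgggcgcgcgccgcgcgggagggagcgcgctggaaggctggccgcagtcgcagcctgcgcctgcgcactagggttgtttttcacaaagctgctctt

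The forkhead core searched was GTAAACA, read on both strands and therefore also as TGTTTAC. RefSeq promoter windows of 300 bases, 250 before the start and 50 from it, were available for 9 of the 10 members, in 13 windows, and Klhl24 was not matched. The core was in 2 of these 13 windows and in 3.65% of 32851 windows of all genes. In Txnip it began 121 bases before the start, at chr3:96557836-96557842. In Sesn1 it lay on the opposite strand and began at base 23 after the start of 1 of the gene's 2 windows. The E-box CACGTG, which reads alike on both strands and does not overlap the core, was in 2 of the 13 windows and in 7.15% of all windows. It began 44 bases before the start of Irs2 and 60 bases before that of 1 of the 2 windows of Bcl6. The end of the Irs2 window was not found in a transcript of the GENCODE annotation, which places the start of Irs2 elsewhere. The 30-base sites are shown for Sesn1, Irs2 and Bcl6 because their messages differ with CMA. The Sesn1 site is at chr10:41810585-41810614 on the plus strand, that of Irs2 at chr8:11008956-11008985 and that of Bcl6 at chr16:23988895-23988924, both on the minus strand, with the searched letters in capitals.
Sesn1: gaaccttctacTGTTTACcagccttttggg
Irs2: gtaacgcagagtCACGTGttgttttgctct
Bcl6: cgtcacggagccCACGTGacggcggcggag
A match of letters is a description of the sequence and no evidence of binding. Foxo3, Foxo1, Pik3ip1, Ccng2 and Arrdc3 held neither motif in their windows.

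The members spanned a wide range of abundance in resting macrophages. Per kilobase of the longest annotated transcript, unstimulated cells held 1940 ± 66.7 normalised counts of Txnip (SD, n = 3) and 1238 ± 39.7 of Sesn1, the 2 highest of the set. Arrdc3 followed at 311 ± 11.5 per kilobase, Bcl6 at 224 ± 8.09, Klhl24 at 130 ± 14.9, Foxo3 at 90.5 ± 2.24, Ccng2 at 76.9 ± 3.98 and Foxo1 at 25.8 ± 2.87. Pik3ip1 at 7.15 ± 1.25 per kilobase and Irs2 at 6.18 ± 1.97 were lowest. Neighbours in this order did not overlap between libraries, except Pik3ip1 and Irs2, whose ranges did. All values below are normalised counts per gene, not per kilobase, and all differences are on the log2(normalised count + 1) scale with the standard error of a limma fit over the 12 libraries.

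Sequencing depth was uneven. The libraries held 13.907 to 17.449 M reads without stimulation and 7.126 to 7.826 M with CMA, and the number 1 libraries of the other groups, at 28.476 M with C-178 and 36.438 M with C-178 plus CMA, were far deeper than the rest of their groups (7.049 to 8.813 M). The C-178 plus CMA libraries also differed most from each other, with a median SD per gene of 0.34 log2 units against 0.115 to 0.179 in the other groups. Among them, library 3 was lowest for 6 of the 10 members and highest for 1. Summed fibroblast markers were 1553 to 1659 normalised counts without stimulation, 1883 to 2222 with C-178, 1848 to 3316 with CMA and 888 to 2320 with C-178 plus CMA. Of 11 such markers, 5, 6, 6 and 5 had group means above 100 in the same order of groups. Lum was at 0 in each group but C-178. Summed B cell markers were 519 to 685 without stimulation, 415 to 477 with C-178, 294 to 402 with CMA and 340 to 417 with C-178 plus CMA, and most of the sum was Cd79b (means of 584, 427, 346 and 376). Macrophage markers summed to 399095 to 409004, 391813 to 445096, 393868 to 452255 and 442368 to 515887 in the same order. In these bulk cultures fewer cells of a type and less RNA per cell cannot be told apart, and the part of these differences in the results below was not tested.

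**Figure D1:**
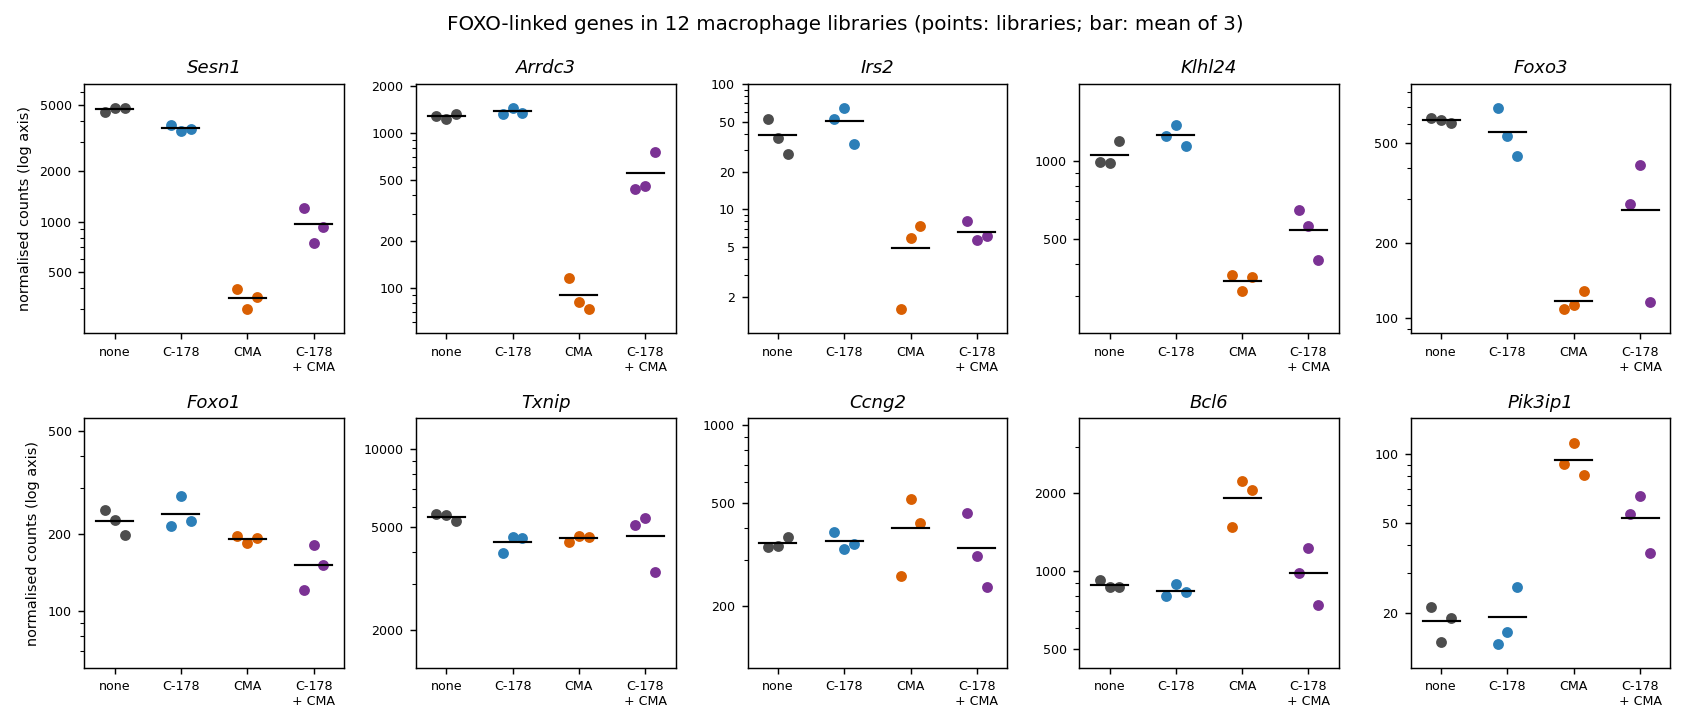
Normalised counts (log axis, a scale of its own in each panel) of the 10 genes in the 12 libraries; points are libraries and bars are means of 3. Sesn1, Arrdc3, Irs2, Klhl24 and Foxo3 sit below the unstimulated libraries in all 3 CMA libraries, and Bcl6 and Pik3ip1 sit above them.

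Across all genes, 19.4% of the 11440 tested were called higher and 17.9% lower with CMA than without stimulation (limma, adjusted p under 0.05). Of the 10 members, 2 were called higher and 5 lower. The members were chosen with results of these data known, so their counts and values are a description and carry no test here. The same holds for the median log2 difference, which was -0.95 for the members and -0.01 for all tested genes. All 3 CMA libraries lay above all 3 unstimulated ones for 2 members and for 31% of genes, and below them for 7 members and 30.9% of genes.

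Sesn1, on chromosome 10 (chr10:41809935-41908424, plus strand, mm10), encodes sestrin 1, a stress-induced protein that restrains mTORC1 and is driven by p53 as well as by FOXO factors. Unstimulated libraries held 4540.8, 4803.3 and 4802.1 normalised counts, and CMA libraries held 395.6, 300 and 354.3. The groups were far apart, with 13.5-fold less message with CMA (log2 -3.76 ± 0.16, SE). Only 10 of the 11440 tested genes had a more negative difference. In the cells given both compounds the values were 1212.5, 741.1 and 930.5, all above every CMA library and all below every unstimulated one. The level was 2.75-fold higher than with CMA (log2 1.44 ± 0.16) and stood at 20.4% of the unstimulated mean. Counted from the unstimulated level, as for the other members below, 61.8% of the log2 change seen with CMA was still present.

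Arrdc3 (chr13:80883384-80896042, plus strand) encodes an alpha-arrestin, an adaptor that links membrane receptors to ubiquitin ligases. It read 1290.1, 1237.9 and 1332.4 without stimulation and 117.0, 80.9 and 73.4 with CMA. This was 14.2-fold lower (log2 -3.84 ± 0.20), rank 9 from the lowest of all tested genes. With both compounds Arrdc3 read 436.7, 458.4 and 754.8, which is 6.08-fold above CMA alone (log2 2.57 ± 0.20). Of the log2 change, 33.0% was still present, less than for Sesn1, and the mean was 42.7% of the unstimulated one. Library 3 held the highest Arrdc3 value of its group, while it held the lowest value for 6 other members.

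Txnip (chr3:96557957-96561883, plus strand) encodes the alpha-arrestin that binds thioredoxin and limits glucose uptake, and was the most abundant member. Its levels were 5609.7, 5576.6 and 5267.7 in unstimulated libraries against 4379.2, 4610.6 and 4564.9 with CMA. All CMA values lay below the unstimulated ones, by 1.21-fold in the mean, and the difference was not called (log2 -0.28 ± 0.16). It was called in 4 of 24 alternative settings. After quantile normalisation it was -0.79. The rest kept nearly the size of the main fit: libraries weighted by quality (-0.29), only the 2 groups fitted (-0.28) and leaving out C-178 plus CMA library 3 (-0.28). With both compounds Txnip read 5102.6, 5417.5 and 3344.7, on both sides of the CMA libraries (log2 0.00 ± 0.16). An approximate 95% interval of the CMA difference, taken from the standard error with a normal distribution, ran from -0.59 to 0.03. Those of Sesn1 and Arrdc3 ran from -4.07 to -3.44 and from -4.24 to -3.45. The limma p rests on a t distribution, which gives wider intervals. The intervals of log2 differences printed here and below are therefore too narrow.

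Klhl24 (chr16:20097542-20129221, plus strand) encodes a kelch-domain adaptor of cullin ubiquitin ligases. Unstimulated libraries held 994.4, 985.9 and 1201.5 normalised counts and CMA libraries 362.6, 313.8 and 356.1, a 3.08-fold lower mean (log2 -1.62 ± 0.16). C-178 plus CMA gave 645.9, 564.0 and 415.6, between the 2 groups without overlap, 1.57-fold above CMA (log2 0.63 ± 0.16). That rise was called in the main fit but was lost in 2 of 25 settings, without CMA library 2 (0.57) and with only the 2 groups fitted (0.63), and was 1.21 after removal of a trend on transcript length and GC content.

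Bcl6 (chr16:23965052-23988852, minus strand), a transcriptional repressor that opposes inflammatory genes in macrophages, moved the other way. It read 918.3, 862.9 and 863.6 without stimulation and 1475.1, 2216.5 and 2057.6 with CMA, 2.17-fold higher (log2 1.10 ± 0.18). With both compounds it read 983.7, 1220.9 and 738.0, below all CMA libraries and around the unstimulated level. It was 1.95-fold lower than with CMA (log2 -0.97 ± 0.18), and 11.3% of the log2 change was still present, the lowest share among the 7 members called with CMA.

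Ccng2 (chr5:93267257-93276231, plus strand) encodes cyclin G2, an unusual cyclin that slows the cell cycle. It read 336.0, 341.0 and 369.5 without stimulation, 260.4, 517.1 and 418.5 with CMA, and 457.9, 309.9 and 235.3 with both. The CMA libraries lay on both sides of the unstimulated ones (log2 0.14 ± 0.25), and the direction turned without CMA library 2 (-0.08). The approximate 95% interval, -0.35 to 0.62, does not reach the differences of Klhl24 (-1.62) or Bcl6 (1.10).

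Among the parts of the input, Irs2 (chr8:10984681-11008458, minus strand) encodes an adaptor that passes insulin and IL-4 receptor signals to PI3 kinase. It was scarce, at 52.5, 37.0 and 27.8 normalised counts without stimulation. CMA libraries held 1.6, 5.9 and 7.3, which rest on 8 reads in all against 175 in the unstimulated group. The mean was 7.87-fold lower (log2 -2.86 ± 0.43), and the reads alone give a ratio of 7.92 with a 95% interval of 3.93 to 18.6 that covers counting error only. With a pseudocount of 10 the difference was -1.70. With C-178 added, Irs2 read 8.0, 5.7 and 6.1, overlapping the CMA libraries (log2 0.49 ± 0.43, approximate 95% interval -0.34 to 1.33). These libraries held 16.9% of the unstimulated mean, and 82.7% of the log2 change was still present. The related adaptor gene Irs1 did not pass the filter and reached at most 4.3 normalised counts.

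Pik3ip1 (chr11:3330401-3342971, plus strand) encodes a membrane protein that binds and inhibits PI3 kinase. It rose from 21.3, 14.9 and 19.0 normalised counts to 90.6, 112.5 and 80.8 with CMA, 5.14-fold (log2 2.30 ± 0.28). With both compounds it read 54.7, 65.7 and 36.7, below all CMA and above all unstimulated libraries. This was 1.81-fold below CMA (log2 -0.87 ± 0.28). That last call was the least stable of the set and was lost in 13 of 25 settings, including the fit with the replicate number as a block (-0.87) and reads thinned to equal depth (-0.52).

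The factors themselves differed from each other. Foxo3 (chr10:42181841-42276755, minus strand) read 633.3, 622.2 and 602.9 without stimulation and 108.8, 112.5 and 128.5 with CMA, a 5.31-fold lower mean (log2 -2.40 ± 0.33). Foxo1 (chr3:52268336-52353221, plus strand) read 247.1, 225.1 and 197.4 against 196.1, 183.6 and 192.7. All CMA values of Foxo1 were below the unstimulated ones but by little. No difference was called (log2 -0.22 ± 0.17, approximate 95% interval -0.55 to 0.11). With C-178 plus CMA, Foxo3 read 285.8, 409.8 and 116.1, so libraries 1 and 2 lay above all CMA libraries and library 3 lay among them. The mean was 2.32-fold above CMA (log2 1.03 ± 0.33), and 57.0% of the log2 change was still present. The rise depended on single libraries: it was 1.55 without library 3 of C-178 plus CMA, 0.64 and not called without library 2, and it was lost in 10 of 25 settings. The highest Foxo3 value in that group was 3.53 times the lowest, against 1.39 to 1.95 for the other 9 members. Foxo1 read 120.7, 181.3 and 151.3 with both compounds, all below the CMA libraries, with no call (log2 -0.35 ± 0.17). It was called lower in 1 of 25 settings, without library 2 of C-178 plus CMA (-0.49).

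**Figure D2:**
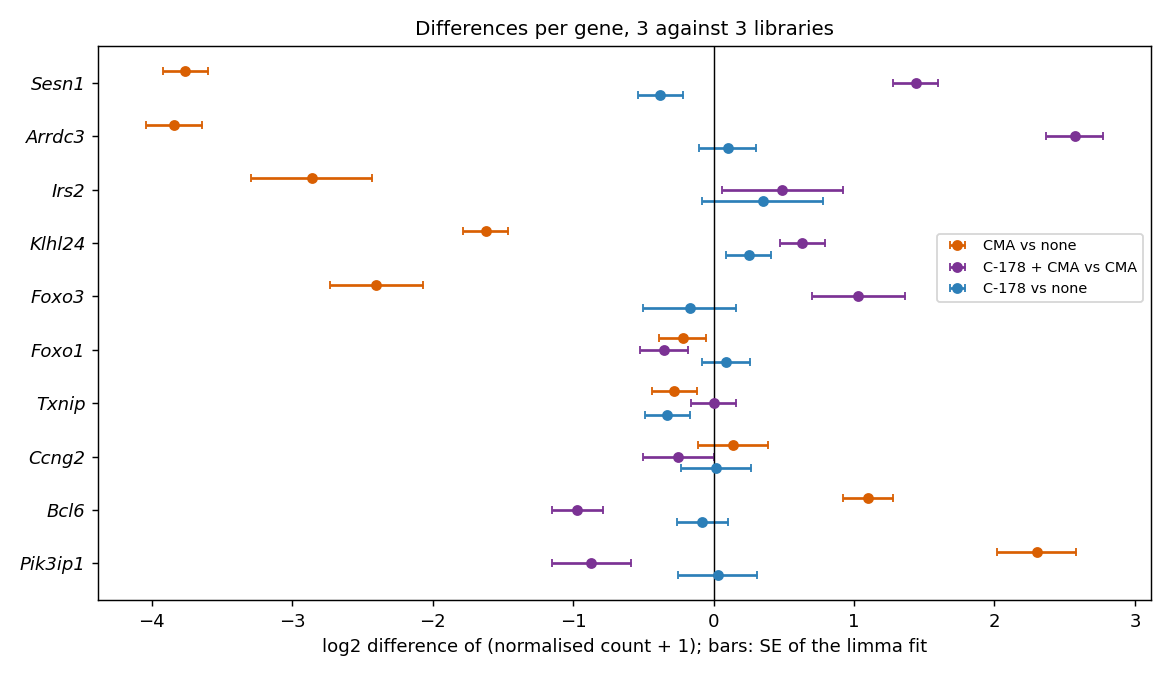
Log2 differences of (normalised count + 1) for the 10 genes in 3 comparisons, with the standard error of the limma fit; the orange points compare CMA, and the blue points C-178, with no stimulation, and the purple points compare C-178 plus CMA with CMA. Sesn1 (-3.76) and Arrdc3 (-3.84) lie farthest left in orange, and Arrdc3 (2.57) lies farthest right in purple.

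Sesn1 and Foxo3 lie near each other, 273.4 kb apart on chromosome 10. Between them the annotation places Armc2, which averaged 19.4 normalised counts without stimulation and 11 with CMA (log2 -0.77 ± 0.38), and the pseudogene Gm9855, which had no read. Outside the pair, Cep57l1, whose start lies next to that of Sesn1 on the other strand, averaged 68.7 and 75.4 (log2 0.13 ± 0.18). Snx3, a sorting nexin gene beyond Foxo3, averaged 2912 and 2249 (log2 -0.37 ± 0.14). Cd164, which encodes a sialomucin, averaged 1566 and 5439 (log2 1.78 ± 0.21). None of these 4 tested neighbours was called lower with CMA. They were chosen after values were seen, so this is a description and is given with no p.

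With C-178 alone no member was called, against 0.0962% of tested genes called higher and 0% lower (limma; 420 genes, 3.67%, had an unadjusted p under 0.05, edgeR called 12 higher and 1 lower, and DESeq2 34 and 4). Sesn1 read 3801.6, 3472.0 and 3588.9 with C-178, below all unstimulated libraries and 1.30-fold lower in the mean (log2 -0.38 ± 0.16). Txnip, at 3981.9, 4581.7 and 4542.1, was likewise below (log2 -0.33 ± 0.16). Arrdc3, at 1336.8, 1456.0 and 1351.3, lay above (log2 0.10 ± 0.20). Thus 2 members had all C-178 libraries below and 1 above, against 7.68% and 7.87% of genes. The remaining members overlapped the unstimulated libraries, with log2 differences from -0.17 for Foxo3 to 0.35 for Irs2. With libraries weighted by quality in limma, 3 members were called lower, Sesn1 (-0.41), Txnip (-0.31) and Foxo3 (-0.38), and so were 8.97% of all tested genes.

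The comparison of C-178 plus CMA with CMA called 10.6% of genes higher and 13.5% lower, and 4 members higher and 2 lower. The members with all libraries above CMA numbered 3 (Sesn1, Arrdc3 and Klhl24) against 17% of genes, and those with all below also numbered 3 (Pik3ip1, Bcl6 and Foxo1) against 18.5%. The median log2 difference of the members was 0.25, and that of all tested genes was 0.00. Each of the 6 called members differed in the direction opposite to its CMA difference. Since the CMA libraries enter both comparisons, this opposition is no separate evidence.

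How much of the CMA response was left in the presence of the inhibitor can be read without shared libraries, from C-178 plus CMA against C-178. Here 13.5% of genes were called higher and 12.6% lower, with 1 member called higher and 6 lower. The same 7 members had all libraries above (1) or below (6) those of C-178, against 16.8% and 17.2% of genes. Irs2 was 7.65-fold lower than with C-178 alone, where it read 53.1, 64.7 and 33.4 (log2 -2.72 ± 0.43). Without the inhibitor the difference was -2.86 ± 0.43. The approximate 95% interval of the difference between the 2 responses ran from -1.04 to 1.32. Sesn1 was 3.77-fold lower (log2 -1.94 ± 0.16), Arrdc3 2.51-fold lower (-1.37 ± 0.20) and Klhl24 2.33-fold lower (-1.24 ± 0.16). C-178 libraries of Klhl24 held 1255.4, 1379.2 and 1146.4 normalised counts.

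Pik3ip1 was 2.74-fold higher with C-178 plus CMA than with C-178, which gave 14.7, 16.6 and 26.2 (log2 1.41 ± 0.28). Bcl6 was not called (log2 0.20 ± 0.18), with C-178 libraries at 796.0, 888.3 and 826.8. Foxo3 was 2.06-fold lower than its C-178 values of 694.6, 534.5 and 444.6 (log2 -1.20 ± 0.33). It was -0.68 without library 3 of C-178 plus CMA, and the call was lost in 2 of 25 settings. Foxo1 was called lower here but not with CMA alone: C-178 libraries read 213.3, 280 and 223.8, and the difference was -0.67 ± 0.17. That call was lost in 3 of 25 settings, among them removal of the length and GC trend (-0.36). Txnip (log2 0.05 ± 0.16) and Ccng2 (-0.13 ± 0.25) were not called. Counted from C-178 alone instead of from unstimulated cells, the share of the log2 change with CMA still present was 51.6% for Sesn1 and 35.7% for Arrdc3. It was 95.1% for Irs2, 76.4% for Klhl24, 61.2% for Pik3ip1, 49.8% for Foxo3 and 18.2% for Bcl6.

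**Figure D3:**
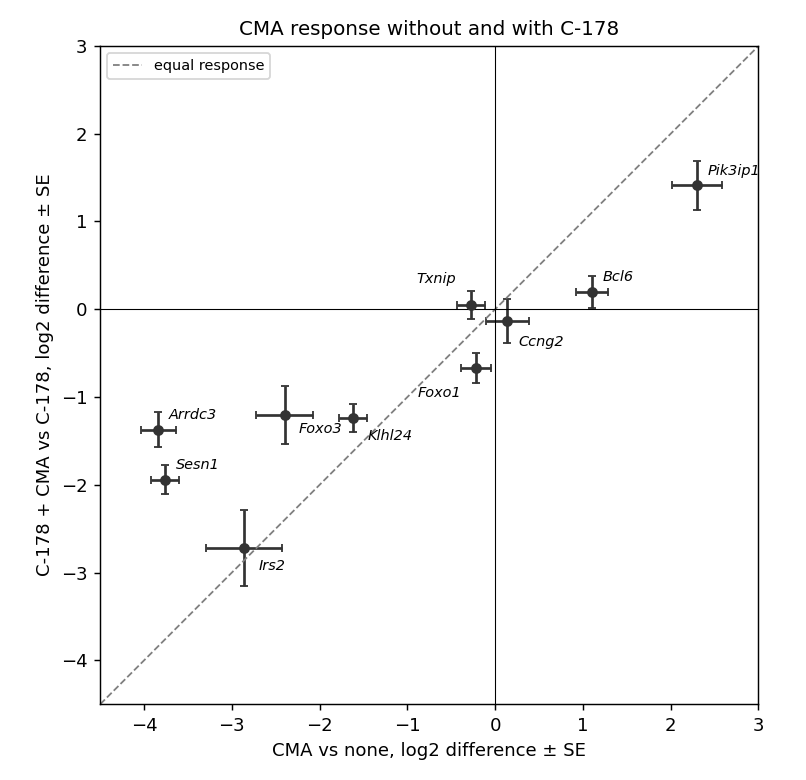
For each gene, the log2 difference of CMA against no stimulation (horizontal) is set against that of C-178 plus CMA against C-178 (vertical), with standard errors; the dashed line marks equal responses. Irs2 (-2.86 and -2.72) lies on the line, and Arrdc3 (-3.84 and -1.37) and Sesn1 (-3.76 and -1.94) lie above it.

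The interaction term, the CMA response with C-178 minus that without it, was called positive for 3.95% and negative for 5.99% of tested genes. It was called for 3 members. It was 2.47 ± 0.29 for Arrdc3 and 1.82 ± 0.23 for Sesn1, which means smaller falls with the inhibitor, and -0.90 ± 0.25 for Bcl6, a smaller rise. For Foxo3 it was 1.21 ± 0.47 and not called, though it was called in 4 of 23 settings and was 1.72 without library 3 of C-178 plus CMA. Irs2 (0.14), Klhl24 (0.38), Pik3ip1 (-0.89), Txnip (0.33), Foxo1 (-0.45) and Ccng2 (-0.27) were not called. The Bcl6 call was lost in 11 of 23 settings.

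Closely related genes moved in both directions. The paralogs and the gene lists below were chosen with earlier results of these data known. The adjusted p printed for their genes is therefore a description and no test. Among the sestrins, Sesn2 fell with CMA from 753 ± 43.3 to 392 ± 21.1 (SD, n = 3; log2 -0.94 ± 0.16, limma adjusted p = 0.000313) and stood at 430 ± 106 with both compounds (against CMA, limma adjusted p = 0.63). Sesn3 rose from 78.4 ± 11.8 to 249 ± 46.0 (log2 1.65 ± 0.30, limma adjusted p = 0.000584) and fell to 95.1 ± 38.7 with C-178 plus CMA (log2 -1.46 ± 0.30, limma adjusted p = 0.00448). The sestrin genes Sesn1 and Sesn3 thus changed in opposite directions with CMA.

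Among the alpha-arrestins, Arrdc2 fell with CMA from 176 ± 5.65 to 53.8 ± 7.61 (log2 -1.70 ± 0.19, limma adjusted p = 6.7e-06), and its level with both compounds, 75.7 ± 17.4, was not called different from CMA (limma adjusted p = 0.0846). Arrdc1 fell from 795 ± 14.5 to 497 ± 28.2 (log2 -0.68 ± 0.16, limma adjusted p = 0.00343) and rose to 796 ± 163 with both (log2 0.66 ± 0.16, limma adjusted p = 0.0098). Arrdc4, which like Txnip limits glucose uptake, rose from 118 ± 10.9 to 270 ± 40.6 (log2 1.18 ± 0.19, limma adjusted p = 0.000244) and was at 131 ± 32.7 with both (log2 -1.06 ± 0.19, limma adjusted p = 0.00227). Of the 4 relatives measured, Arrdc5 had no read.

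Foxo4, the other FOXO gene expressed here, fell with CMA from 211 ± 11.6 to 121 ± 21.7 (log2 -0.81 ± 0.18, limma adjusted p = 0.00317) and rose against CMA to 195 ± 47.3 with both (log2 0.67 ± 0.18, limma adjusted p = 0.0199). Foxo6 was below the filter. Cyclin G1 (Ccng1) averaged 5003 without stimulation and 5780 with CMA, with no call, and was lower with both than with CMA, at 4147 (log2 -0.49 ± 0.13, limma adjusted p = 0.0192). Over the 12 listed paralogs, 8 were tested. With CMA 2 rose and 4 fell, beside 19.4% and 17.9% of all tested genes. With both compounds against CMA 2 rose and 3 fell, beside 10.6% and 13.5% of all tested genes.

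**Figure D4:**
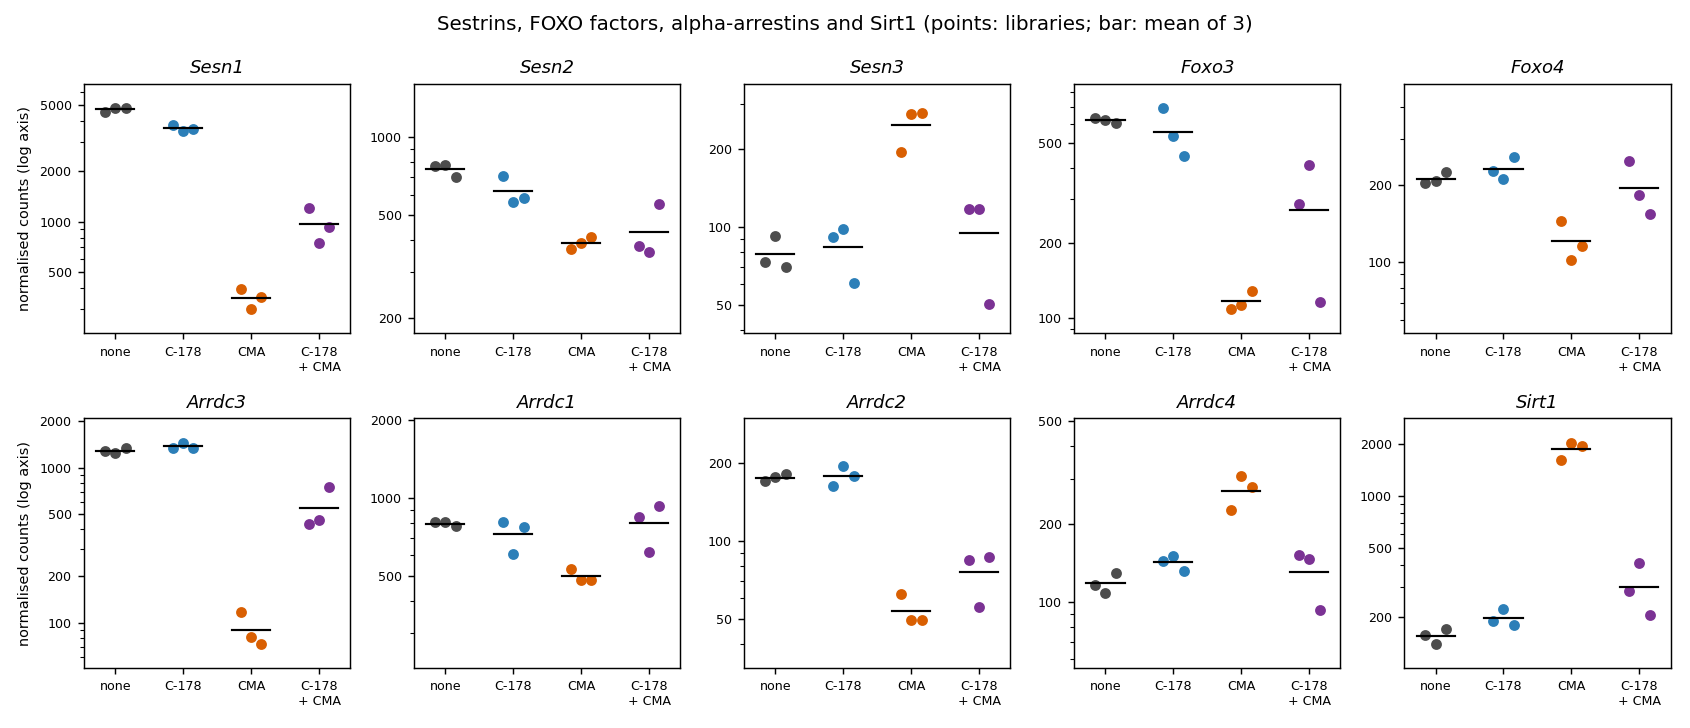
Normalised counts (log axis, a scale of its own in each panel) of sestrin, FOXO and alpha-arrestin genes and of Sirt1 in the 12 libraries; points are libraries and bars are means of 3. With CMA, Sesn3, Arrdc4 and Sirt1 rise (Sirt1 from 157 to 1855) while Sesn1, Arrdc3 and Foxo3 fall.

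Genes that act on FOXO proteins were taken from a list of 18, of which 17 were tested. With CMA 6 rose and 4 fell, beside 19.4% and 17.9% of all tested genes. The median log2 difference of the list was 0.00. Sirt1, a deacetylase that acts on FOXO proteins and p53, rose 11.8-fold with CMA, from 157 ± 15.1 to 1855 ± 225 (log2 3.55 ± 0.21, limma adjusted p = 1.29e-08). With C-178 plus CMA it was 300 ± 103, a fall against CMA (log2 -2.67 ± 0.21, limma adjusted p = 4.74e-06). Mdm2, a ubiquitin ligase best known for p53, rose from 1514 to 2987 (log2 0.96 ± 0.14, limma adjusted p = 0.000114) and fell to 1374 with both (log2 -1.10 ± 0.14). Skp2, part of a ubiquitin ligase that marks FOXO1, fell from 130 to 64.7 with CMA (log2 -1.0 ± 0.17, limma adjusted p = 0.000392). Stk4, a Hippo pathway kinase that phosphorylates FOXO proteins, fell from 2447 to 1496 (log2 -0.71 ± 0.13). Against CMA, 1 gene of the list rose and 4 fell with both compounds, beside 10.6% and 13.5% of all tested genes. Among the 4 that fell was Stk3, which encodes a kinase related to that of Stk4 (from 1180 to 643, log2 -0.99 ± 0.27, limma adjusted p = 0.0195).

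Of 27 genes of the PI3 kinase and AKT input, 26 were tested. With CMA 9 rose and 6 fell (median -0.03), beside 19.4% and 17.9% of all tested genes. Sgk1, an AKT-like kinase that also phosphorylates FOXO3, rose from 1141 to 3501 (log2 1.61 ± 0.18, limma adjusted p = 9.38e-06), and Sgk3 from 1156 to 2461 (log2 1.09 ± 0.17, limma adjusted p = 0.000152). Pik3cg, the catalytic subunit of the PI3 kinase that G protein coupled receptors use, fell from 2477 to 1242 (log2 -1.0 ± 0.12, limma adjusted p = 1.21e-05). With C-178 plus CMA against CMA, 0 rose and 6 fell, beside 10.6% and 13.5% of all tested genes. The median of the list was -0.18, against 0.00 over all genes. Rictor, a subunit of mTORC2, fell from 895 to 396 (log2 -1.23 ± 0.28) and the AKT phosphatase gene Phlpp1 from 553 to 272 (log2 -1.13 ± 0.27). Sgk1 was at 3133 and was not called (log2 -0.20 ± 0.18).

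Other genes commonly listed as FOXO targets numbered 49, of which 43 were tested. With CMA 10 rose and 14 fell, that is on both sides, with a median of -0.17. Of all tested genes 19.4% rose and 17.9% fell. Tnfsf10, which encodes the death ligand TRAIL and is also an interferon-induced gene, rose from 55.2 to 3831 (log2 6.07 ± 0.36, limma adjusted p = 1.42e-08). S1pr1, a receptor for sphingosine 1-phosphate, fell from 943 to 157 (log2 -2.59 ± 0.15, limma adjusted p = 1.17e-08). Gadd45b, a growth arrest and stress gene that NF-κB also drives, rose from 171 to 726 (log2 2.08 ± 0.16, limma adjusted p = 1.62e-07). Cdkn1a, which encodes the cell cycle inhibitor p21, rose from 6528 ± 367 to 20845 ± 1223 (log2 1.67 ± 0.12, limma adjusted p = 8.7e-08). Its relative Cdkn1b (p27) averaged 707 ± 51.6 without stimulation and 188 ± 18.9 with CMA (log2 -1.90 ± 0.21). Cdkn1b was chosen after its values were seen, so its opposite direction to Cdkn1a is a description and is given with no p.

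With C-178 plus CMA against CMA, 3 of the 43 rose and 9 fell, beside 10.6% and 13.5% of all tested genes. Gadd45b fell to 221 (log2 -1.71 ± 0.16, limma adjusted p = 1.61e-05), Tob1, an antiproliferative gene, from 484 to 156 (log2 -1.71 ± 0.22, limma adjusted p = 0.000211) and Sod2, the mitochondrial superoxide dismutase, from 1858 to 962 (log2 -0.96 ± 0.16, limma adjusted p = 0.00128). S1pr1 rose to 312 (log2 0.98 ± 0.15, limma adjusted p = 0.000708). Cdkn1b stood at 199 ± 68.6 (log2 0.03 ± 0.21). Against C-178, 7 of the 43 rose and 19 fell (median -0.28, against 0.01 over all genes), beside 13.5% and 12.6% of all tested genes.

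Sesn1 and Ccng2 have relatives under p53, so p53 targets were counted as well. Of 20 listed, 18 were tested. With CMA 5 rose and 3 fell (median 0.26), beside 19.4% and 17.9% of all tested genes. With C-178 plus CMA against CMA 0 rose and 5 fell (median -0.30), beside 10.6% and 13.5% of all tested genes. Cdkn1a, Mdm2 and Sesn2 are on this list too. Plk2, a polo-like kinase gene, rose from 294 to 1646 with CMA (log2 2.47 ± 0.17, limma adjusted p = 9.34e-08) and fell to 675 with both (log2 -1.29 ± 0.17). Pmaip1, which encodes the death protein NOXA, fell from 324 with CMA to 134 with both (log2 -1.28 ± 0.15, limma adjusted p = 0.000113). Among 8 genes that work with Txnip in glucose sensing, 7 were tested. Of these 1 rose and 2 fell with CMA, beside the same 19.4% and 17.9% of all tested genes. Hexokinase 2 (Hk2) fell from 2375 to 1484 (log2 -0.68 ± 0.11, limma adjusted p = 0.000308) and the glucose transporter gene Slc2a1 from 495 to 372 (log2 -0.41 ± 0.13, limma adjusted p = 0.0282). Against CMA, Hk2 rose to 1958 (log2 0.39 ± 0.11) and Slc2a1 to 527 (log2 0.50 ± 0.13) with both compounds.

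**Figure D5:**
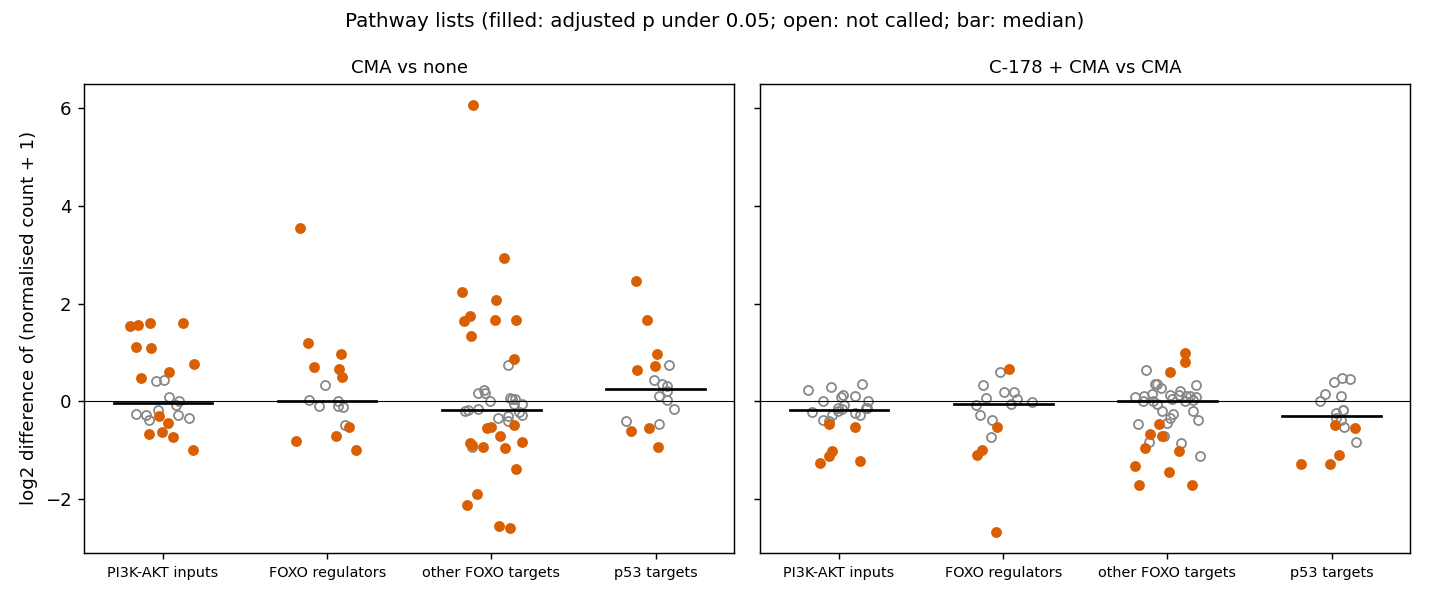
Log2 differences of (normalised count + 1) of the tested genes in 4 lists, for CMA against no stimulation (left) and C-178 plus CMA against CMA (right); filled points were called by limma at adjusted p under 0.05, and bars are medians. On the left the called genes lie on both sides of 0 in each list, with Tnfsf10 (6.07) and Sirt1 (3.55) highest; on the right Sirt1 (-2.67) is lowest.

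The genes outside the set whose levels followed Sesn1 most closely, by Pearson's r of log2 values over the 12 libraries among 8174 genes with a mean of at least 100, were Il16 (r = 0.995), Ppp1r21 (0.994), Lfng (0.990), Gpr146 (0.990) and Cerk (0.990). Il16, which encodes a secreted lymphocyte attractant, averaged 650 without stimulation, 529 with C-178, 55.5 with CMA and 136 with both. For Arrdc3 they were Cd300lb (r = 0.990), Kcnk13 (0.987), AI467606 (0.987), Bmf (0.986) and Gm16515 (0.984). Cd300lb, an activating myeloid receptor gene, averaged 3189, 3763, 102 and 783 in the same order of groups, and Bmf, which encodes a BH3-only death protein, 376, 355, 7.38 and 78.2. The 12 libraries form 4 groups, so these values describe a shared pattern of group levels and are given with no p.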

How the data were processed

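The values are a signal per gene and library, normalised counts in 1 table deposited by the authors. The submitters' processing notes name the genome mm10, Bowtie2 2.2.1 and limma 3.18.13. How reads were counted, and with which strand setting, is not stated, although the kit was stranded per the labels, so reads of overlapping genes may not be separable. Size factors are inferred from the header. A further 12 columns, Cook's distances, went unused. Dividing each column by its smallest step gave whole reads for 100% of values (tolerance 0.01), at 7.049 to 36.438 M reads per library.

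Genes above 10 normalised counts in at least 3 libraries (11440) were fitted as log2(value + 1) with limma 3.58.1 in R 4.3.3, over all 12 libraries with a mean-variance trend. Benjamini-Hochberg adjustment ran over all tested genes within each of 5 comparisons, with calls at adjusted p under 0.05. Intervals of log2 differences were taken from the standard error with a normal distribution. They are narrower than those of the t distribution behind the limma p. edgeR 4.0.16 and DESeq2 1.42.0 on recovered reads, other scalings, filters and pseudocounts, and leaving out each library served as alternatives, and the fit was tested on simulated data. Gene positions and transcript lengths are from GENCODE M21 and promoters from RefSeq (GRCm38.p6). Tables were read with Python 3.11.15.

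The members and lists were chosen with earlier results of these data known, so members carry no p. The p printed for genes of the lists, paralogs included, was adjusted over all tested genes. It takes no account of how the lists were chosen, or of naming genes by their smallest adjusted p. Such values are therefore a description and no test of a list or of its genes. Genes named beside the members are the up to 4 of each list with the smallest adjusted p in the comparison described, the paralogs, and the 5 genes closest to Sesn1 and to Arrdc3. The neighbours of Sesn1 and Foxo3 on chromosome 10, and Cdkn1b, were chosen after values were seen and also carry no p. A gene that this rule would name is not reported here. A heading occurs on 2 unstimulated columns, and that group is listed as libraries 1, a and b. Between the C-178 group and the group given both compounds, the deviations of same-numbered libraries had correlations of 0.45, 0.43 and 0.26. All were above 0.1, so the numbers may mark pairs there. The number 1 libraries of these groups were also by far the deepest (28.476 and 36.438 M reads). The part of depth in these correlations was not tested. Deviations within a group sum to 0, so the correlations do not count as separate agreements. The values printed are from the fit without the replicate block, so their standard errors take no account of such pairs. The block was fitted as an alternative and put the same numbers on the CMA libraries too. Between the CMA group and the group given both, the correlations were -0.14, 0.18 and -0.16, on both sides of 0, so the block may not apply there.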

Additional observations from a re-analysis of the deposited data

Results flagged for a closer look

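The CMA response of 3 members differed between cells with and without C-178 by the interaction term of the limma fit. The difference was 1.82 log2 units for Sesn1 (-1.94 with C-178 against -3.76 without) and 2.47 for Arrdc3 (-1.37 against -3.84). It was -0.90 for Bcl6 (0.20 against 1.10). Sesn1 and Arrdc3 were called in all 23 alternative settings, and Bcl6 was lost in 11 of them. These genes were chosen with such results known, so the values are a description, and their cause was not tested.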

How the results depend on the processing

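Over 24 alternative settings for either compound alone, 25 for the comparisons of the combined treatment and 23 for the interaction, 1123 of 1210 member values kept their direction and their side of the threshold. Of the others 41 lost the call, 15 gained it and 31 turned sign. The cause of each change was not tested. The counts of members called with CMA (2 higher, 5 lower) and with both compounds compared with C-178 (1 and 6) stayed within 1.5 times in all settings run.

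With array weights 3 members were called lower with C-178, as were 1026 genes in all against 0 without the weights. Against CMA, 2 instead of 4 members were called higher with C-178 plus CMA when only the 2 groups were fitted, and leaving out single libraries gave 2 to 4 (2 without CMA library 2). Members called lower numbered 1 instead of 2 with no filter, thinned reads, array weights or only the 2 groups fitted. Leaving out single libraries gave 1 to 2, with 1 exception. Without C-178 plus CMA library 2, Foxo1 (-0.49) was called lower as well, beside Bcl6 and Pik3ip1. With the replicate block the number called lower was 1, through the loss of Pik3ip1. The block changed no other member's call in the 2 comparisons where it was fitted. For the interaction, 4 instead of 2 members were positive after removal of the length and GC trend, and 2 to 4 over the left-out libraries (4 without C-178 plus CMA library 3). Negative members were 0 instead of 1 with no filter, quantile normalisation or thinned reads, 2 with array weights, and 0 to 1 over the left-out libraries. It was 0 without any of the unstimulated libraries, C-178 libraries 2 or 3, CMA libraries 2 or 3, or C-178 plus CMA library 1.

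All turns of sign were of values that were not called. After removal of the length and GC trend, Ccng2 was -0.15 for CMA, -0.07 for C-178, 0.04 for both compounds compared with CMA and 0.11 for the interaction, Foxo1 was -0.02 for C-178 and 0.02 for the interaction, and Txnip was -0.04 against CMA and -0.02 against C-178. Pik3ip1 with C-178 was -0.03 with edgeR and -0.02 with DESeq2. Txnip was -0.03 against CMA with thinned reads and -0.20 against C-178 after quantile normalisation. Ccng2 was 0.06 against C-178 with array weights, and the Irs2 interaction was -0.13 with a pseudocount of 10. Over the left-out libraries, Ccng2 ran from -0.08 to 0.42 for CMA, from -0.05 to 0.07 for C-178 and from -0.39 to 0.09 against C-178. Pik3ip1 ran from -0.21 to 0.18 for C-178. Foxo1 ran from -0.02 to 0.17 for C-178. Txnip ran from -0.13 to 0.22 against CMA and from -0.08 to 0.27 against C-178. Irs2 ran from -0.01 to 0.82 against CMA and from -0.37 to 0.46 for the interaction.

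Over all genes, quantile normalisation moved the split of calls with both compounds compared with C-178 from 1548 higher and 1440 lower to 1351 and 1892. It moved the median difference with CMA from -0.01 to -0.115 and the Txnip value with CMA from -0.28 to -0.79. For C-178 alone the calls ran from 4 to 823 higher and 0 to 1026 lower, the highest with array weights. For the interaction they ran from 122 to 1681 positive and from 209 to 2018 negative. With both compounds compared with CMA they ran from 261 to 2179 higher and 593 to 2532 lower, and against C-178 from 738 to 2114 and 600 to 2067. For CMA they ran from 1761 to 3672 higher and 1536 to 3708 lower. Depth limits Irs2 and Pik3ip1 most, whose CMA and unstimulated levels rest on few reads, and 3 libraries per group limit every comparison.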
